A study of Mus musculus with 6 samples.

Results

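The genes described here are 10 genes that T cells switch on after antigen-receptor engagement or NF-kB signalling: Nr4a1, Nr4a2, Nr4a3, Rel, Nfkbia, Nfkbid, Tnfaip3, Cd69, Cd83 and Tnf. They were picked by symbol as a functional group after the RPKM values and fold changes of these same libraries had been seen, and all 10 were found among the 14608 genes of both deposited tables. Expression was measured by RNA-seq in regulatory T (Treg) cells of mouse spleen, sorted as CD4+YFP+ cells after magnetic enrichment of CD4+ cells. There were 6 libraries, 2 for each genotype: wild type (WT), heterozygous Cdc42 knockout (Cdc42+/-) and homozygous Cdc42 knockout (Cdc42-/-). Per the series' design text each genotype came from 2 mice. Cdc42 is a small GTPase that organises the actin cytoskeleton. The sources used here name no treatment, age or sex, and neither the promoter that drives YFP nor a recombinase. All cells carried YFP, since it was part of the sort, and whether anything else is shared by the WT controls is not given.

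The NR4A proteins are orphan nuclear receptors whose genes are transcribed within minutes of a T-cell receptor signal, and they are needed for Treg cells to form and keep their identity. NF-kB factors wait in the cytoplasm bound to IkB proteins until kinases mark those inhibitors for destruction. The freed factors then also switch on genes for their own inhibitors, such as Nfkbia and Tnfaip3, which ends the signal. In Treg cells the subunit c-Rel and the atypical IkB protein encoded by Nfkbid both promote Foxp3 expression.

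The promoter sequences of 4 genes are shown because they hold letters of the kinds bound by factors that act downstream of these signals. RefSeq promoter windows of GRCm38.p6 were found for 8 of the 10 genes, and the 250 bases before the transcription start were searched on both strands. Where a member had several windows (3 for Nfkbid and 2 for Tnfaip3), only that of the outermost start was searched. The shares of all windows count every start. Letters of the NF-kB type (GGG, any 3 bases, then TTCC, which reads GGAA, any 3 bases, then CCC on the other strand) occurred in 3 of the 8 windows and in 4.65% of all 32851 windows. These were Nfkbia (chr12:55492648-55492897, minus strand), Tnfaip3 (chr10:19015411-19015660, minus strand) and Rel (chr11:23770970-23771219, minus strand). In the Nr4a1 window (chr15:101266596-101266845, plus strand) which lies inside the gene's annotated span, the letters TGCGTCA, which resemble the cyclic-AMP response element, occurred 4 times, and 1.75% of all windows held them at least once. That motif was chosen after the sequence had been seen. TGANTCA, of the AP-1 type, occurred in Tnfaip3 among the 8 (6.75% of all windows). TGACGTCA (1.55% of all windows) and AAAGGTCA, the site bound by NR4A monomers (1.34%), occurred in 0 of the 8. No motif overlapped another in these windows. Capitals mark the NF-kB type letters in the first 3 sequences and TGCGTCA in the last, each printed 5′ to 3′ on the gene's strand. A match describes letters only.
Nfkbia: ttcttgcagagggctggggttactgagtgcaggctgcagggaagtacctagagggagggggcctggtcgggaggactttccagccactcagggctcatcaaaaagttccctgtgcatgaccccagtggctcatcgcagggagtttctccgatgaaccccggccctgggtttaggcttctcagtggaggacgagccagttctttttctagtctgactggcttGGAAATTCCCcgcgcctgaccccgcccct
Tnfaip3: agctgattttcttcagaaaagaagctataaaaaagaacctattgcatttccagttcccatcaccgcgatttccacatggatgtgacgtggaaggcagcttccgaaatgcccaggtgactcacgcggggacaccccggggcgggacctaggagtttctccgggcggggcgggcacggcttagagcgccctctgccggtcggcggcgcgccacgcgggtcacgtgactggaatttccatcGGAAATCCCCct
Rel: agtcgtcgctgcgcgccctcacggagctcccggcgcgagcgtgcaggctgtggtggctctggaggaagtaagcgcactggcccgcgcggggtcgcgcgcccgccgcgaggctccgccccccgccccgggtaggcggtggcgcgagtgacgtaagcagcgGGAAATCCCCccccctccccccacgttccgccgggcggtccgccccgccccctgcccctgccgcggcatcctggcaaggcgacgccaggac
Nr4a1: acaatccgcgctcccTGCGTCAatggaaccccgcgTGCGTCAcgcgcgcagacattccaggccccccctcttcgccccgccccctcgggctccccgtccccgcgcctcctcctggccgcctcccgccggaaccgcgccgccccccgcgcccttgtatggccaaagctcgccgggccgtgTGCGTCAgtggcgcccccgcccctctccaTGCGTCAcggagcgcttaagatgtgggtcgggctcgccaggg

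The libraries held 8556576 to 17796100 reads in genes. Cdc42 itself stood at 161 to 166 RPKM in WT, 156 to 164 in Cdc42+/-, and 122 and 173 in Cdc42-/-, whose replicate 2 was the highest of all 6. The log2 fold change of Cdc42-/- against WT was -0.17 (SE 0.17), and Cdc42+/- overlapped WT. The RNA level of the whole gene thus did not bear out the labels, and loss of the allele itself was not tested. Genotype names therefore mean the libraries so labelled throughout, and every direction drawn from Cdc42-/- is that of those labels. RPKM is the number of reads scaled to gene length and library total, a level per length. Xist, transcribed in female cells, was at 0.199 and 1.13 RPKM in the WT libraries, 99.3 and 93.3 in the heterozygous ones, and 87.4 and 21.2 in the homozygous knockouts. Y-linked Ddx3y reached 37.7 and 42.4 RPKM in WT, at most 0.126 in Cdc42+/- and Cdc42-/- replicate 1, and 27.5 in Cdc42-/- replicate 2, which thus held both RNAs. Genotype and sex-linked expression therefore cannot be told apart in the comparison of Cdc42+/- with WT. Cdc42-/- against WT also differed in sex-linked expression, with Xist higher in both Cdc42-/- libraries (log2 fold change 4.80, limma adjusted p 0.00753). Without replicate 2 that comparison sets a library with Xist against libraries with Ddx3y, and genotype and sex-linked expression cannot be told apart in it. Markers of T and Treg cells (7 of 7 measured, Foxp3, Cd4 and Cd3e among them) were present in every library. Their summed level was 1403 to 1446 RPKM in WT, 1342 to 1413 in Cdc42+/-, and 1158 and 915 in the Cdc42-/- libraries. Not every marker followed the sum. Ctla4 went the other way, at 202 and 201 RPKM in Cdc42-/- against 130 to 157 in the other genotypes. Foxp3 overlapped WT, at 118 and 58.4 RPKM in Cdc42-/- against 131 and 118. Cdc42-/- replicate 2 stood apart: its 12 myeloid markers summed to 1540 RPKM, against 48.3 in replicate 1 and 15.9 to 56.7 in the other genotypes. Its dendritic (48.4 RPKM, at most 8.85 elsewhere) and erythroid (24.8, at most 4.45 elsewhere) marker sums were also the highest. Of that dendritic sum 41.2 RPKM was H2-Aa. Itgax (4.73), Flt3 (1.59) and Zbtb46 (0.545) were also at their highest there, while Xcr1 (0.344) was at its lowest and Siglech at 0. B-cell markers, 7 of 7 measured, summed to 12.7 to 18.7 RPKM in WT, 19.96 to 22.6 in Cdc42+/-, and 11.0 and 16.8 in Cdc42-/-. Flt3 was at 0 in both WT libraries, Itgax in WT replicate 1, and Siglech in WT replicate 2 and Cdc42-/- replicate 2. Lyz2, a macrophage and neutrophil gene, was at 600.2 RPKM in Cdc42-/- replicate 2 and at most 9.75 elsewhere. Fold changes in Cdc42-/- are therefore also given without replicate 2 for the members and, against WT, for 13 of the list genes named. In bulk RNA, a lower share of cells of a type and less RNA per cell cannot be told apart.

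In the libraries labelled Cdc42-/- the 10 genes were split, some above and some below WT, while no member differed by more than 0.28 (log2) between Cdc42+/- and WT. Nr4a1, Tnfaip3 and Cd69 stood at about 2 times their WT level in Cdc42-/-, Cd83, Tnf and Nr4a2 at less than 0.44 of it, and Nfkbia, Nfkbid, Nr4a3 and Rel differed least on the log2 scale. Across genotypes the level per length ran from Nr4a2, the lowest (mean 1.48 RPKM in WT), to Nfkbia, the highest (173). The members were named with earlier results of these libraries known, so their levels and fold changes are given as a description, no p-value of a member is printed, and counts of members past the threshold are given only beside the share of all genes. Fold changes were estimated with limma on log2(RPKM + 1) over 12233 genes. On that scale the change of low genes is understated.

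**Figure D1:**
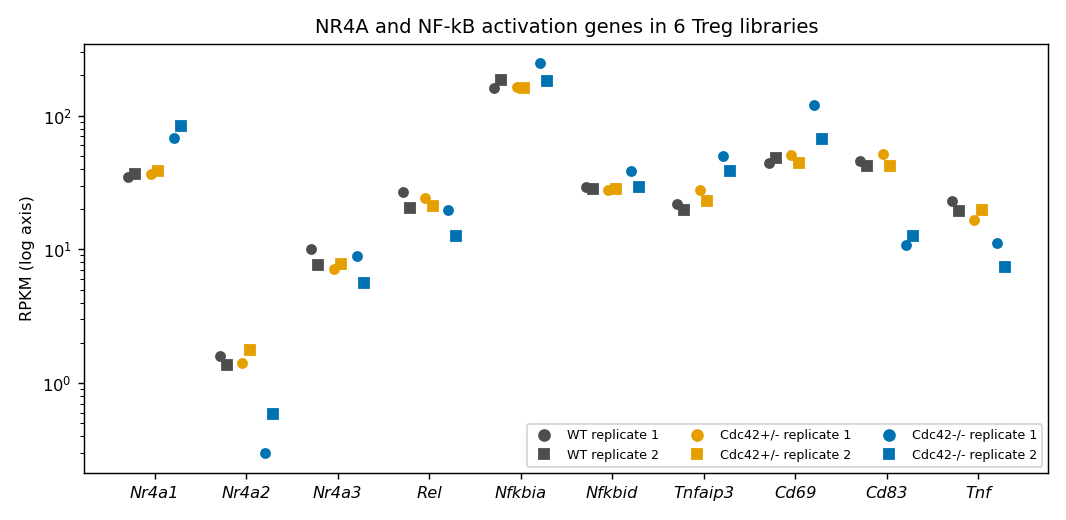
RPKM of the 10 genes in each of the 6 Treg libraries, on a log axis; colour gives the genotype and shape the replicate. The Cdc42-/- points lie above all others for Nr4a1, Tnfaip3, Cd69 and, narrowly, Nfkbid, and below them for Nr4a2, Cd83, Tnf and Rel.

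Nr4a1 encodes Nur77, the NR4A receptor most used as a reporter of antigen-receptor signal strength, and lies at chr15:101253902-101274795 (gene ID 15370). The WT libraries gave 34.7 and 36.5 RPKM, the heterozygous ones 36.7 and 38.7, and the homozygous knockouts 68.7 and 83.5. Both Cdc42-/- libraries were above all 4 others. The mean was 2.14 times that of WT (log2 fold change 1.07, SE 0.13) and 2.02 times that of Cdc42+/- (0.99, SE 0.13), while Cdc42+/- differed from WT by 0.08 (SE 0.13). Without Cdc42-/- replicate 2 the differences were 0.93 from WT and 0.85 from Cdc42+/-.

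The other NR4A genes did not follow Nr4a1. Nr4a3, which encodes NOR-1 (chr4:48045078-48086447, gene ID 18124), was at 9.998 and 7.60 RPKM in the WT libraries, 7.18 and 7.81 in the heterozygous ones, and 8.86 and 5.63 in the homozygous knockouts. The genotypes overlapped, with a log2 difference of -0.27 (SE 0.24) between Cdc42-/- and WT, which was 0.02 without Cdc42-/- replicate 2 and -0.55 without replicate 1. Nr4a2, which encodes Nurr1 (chr2:57106830-57124003, gene ID 18227), was low throughout, at 1.60 and 1.36 RPKM in the WT libraries, 1.42 and 1.76 in the heterozygous ones, and 0.297 and 0.589 in the homozygous knockouts. Both Cdc42-/- libraries were below the other 4, from 11 and 18 reads against 39 to 105. The Cdc42-/- mean was 0.300 of the WT mean (-0.79, SE 0.25, and -0.93 without Cdc42-/- replicate 2).

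Summed over the family, NR4A RNA came to 46.3 and 45.5 RPKM in the WT libraries, 45.3 and 48.3 in the heterozygous ones, and 77.8 and 89.7 in the homozygous knockouts. Nr4a1 made up 75.0% and 80.3% of this sum in WT and 81.0% and 80.2% in Cdc42+/-, but 88.2% and 93.1% in Cdc42-/-. Nr4a3 held 21.6% and 16.7% in WT, while Cdc42+/- had 15.8% and 16.2% and Cdc42-/- 11.4% and 6.27%. The share of Nr4a2 went from 2.99% to 3.65% in WT and Cdc42+/- down to 0.382% and 0.656%. In Cdc42-/- the family's RNA was larger in amount and more of it came from Nr4a1.

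**Figure D2:**
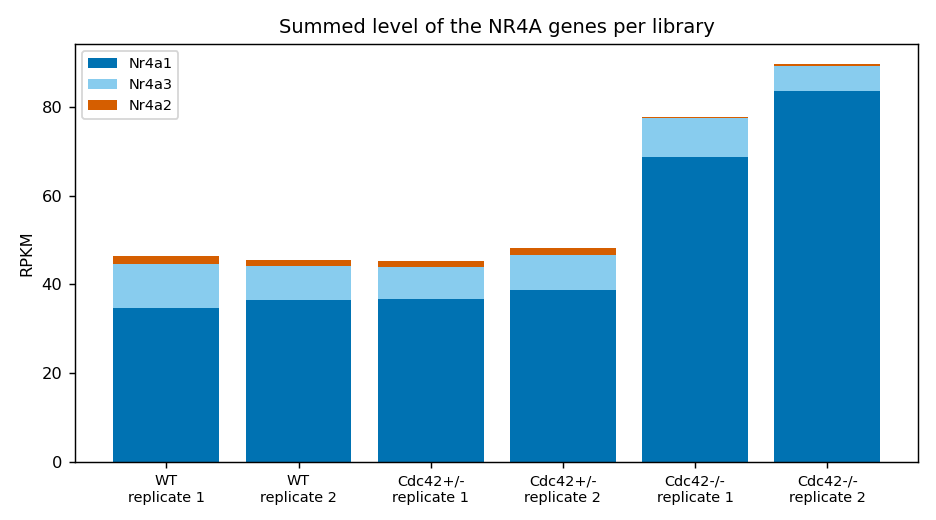
Stacked RPKM of Nr4a1, Nr4a3 and Nr4a2 in each library, as a level per gene length. The bars stand between 45.3 and 48.3 RPKM in WT and Cdc42+/- and at 77.8 and 89.7 RPKM in Cdc42-/-, where the added height is Nr4a1.

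Among the NF-kB genes, the feedback inhibitor Tnfaip3 and the subunit gene Rel lay in opposite directions in Cdc42-/-. Tnfaip3 encodes A20, a ubiquitin-editing enzyme that shuts off NF-kB signalling (chr10:19000910-19015410, gene ID 21929). The WT libraries gave 21.8 and 19.6 RPKM, the heterozygous ones 27.7 and 23.1, and the homozygous knockouts 49.7 and 38.8. No 2 genotypes overlapped, in the order WT, Cdc42+/-, Cdc42-/-. Against WT the log2 fold change was 1.05 (SE 0.16) in Cdc42-/-, with 1.23 without its replicate 2. In Cdc42+/- against WT it was 0.28 (SE 0.16) and was not called. In Cdc42-/- against Cdc42+/- it was 0.77 (SE 0.16).

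Rel encodes c-Rel (chr11:23736847-23770969, gene ID 19696) and was at 26.7 and 20.5 RPKM in the WT libraries, 24.4 and 21.2 in the heterozygous ones, and 19.8 and 12.5 in the homozygous knockouts. Its Cdc42-/- libraries were below all others, but replicate 1 only narrowly so, at 19.8 against 20.5 RPKM in WT replicate 2. The log2 difference from WT was -0.54 (SE 0.24), with -0.23 without Cdc42-/- replicate 2 and -0.85 without replicate 1. The ratio of Tnfaip3 to Rel within a library, both per length, was 0.816 and 0.956 in WT, with 1.14 and 1.09 for the heterozygotes and 2.51 and 3.11 for the homozygous knockouts.

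Nfkbia and Nfkbid were higher in the Cdc42-/- mean, but mainly through 1 library. Nfkbia encodes IkB-alpha, the inhibitor that holds NF-kB dimers in the cytoplasm (chr12:55489409-55492647, gene ID 18035), and was among the most abundant genes of these cells, above 98.2% of all genes in WT. The WT libraries gave 161 and 185 RPKM, the heterozygous ones 165 and 161, and the homozygous knockouts 246 and 182. Only Cdc42-/- replicate 1 was above every other library, and replicate 2 overlapped WT. Nfkbid encodes IkB-NS (chr7:30421731-30428749, gene ID 243910) and was at 29.3 and 28.4 RPKM in the WT libraries, 27.7 and 28.2 in the heterozygous ones, and 38.6 and 29.5 in the homozygous knockouts. Against WT the log2 differences in Cdc42-/- were 0.29 (SE 0.16) for Nfkbia and 0.22 (SE 0.15) for Nfkbid. Without Cdc42-/- replicate 1 they were 0.08 and 0.03, and without replicate 2 they were 0.51 and 0.41. Both values rested on replicate 1.

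Of the surface and secreted products, Cd69 and Cd83 are both textbook activation markers and lay at opposite ends. Cd69 encodes a lectin that holds activated T cells in tissue by removing a sphingosine-phosphate receptor from the surface (chr6:129267324-129275375, gene ID 12515). It was at 44.1 and 48.4 RPKM in the WT libraries, 50.5 and 44.0 in the heterozygous ones, and 119 and 67.4 in the homozygous knockouts. Both Cdc42-/- libraries were higher than the rest but differed from each other by 1.77 times, the widest replicate gap of the 5 genes that were higher in Cdc42-/- than in WT. Compared with WT the log2 difference was 0.94 (SE 0.26), with 1.35 without replicate 2 and 0.54 without replicate 1.

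Cd83 encodes an immunoglobulin-family surface protein of activated lymphocytes and dendritic cells (chr13:43785112-43803133, gene ID 12522). The WT libraries gave 46.0 and 42.0 RPKM, the heterozygous ones 52.0 and 41.8, and the homozygous knockouts 10.7 and 12.7. The Cdc42-/- libraries lay close together and far below the other 4. The mean was 0.266 of that of WT (log2 fold change -1.83, SE 0.15) and 0.250 of that of Cdc42+/- (-1.91, SE 0.15). The change from WT was -1.94 without Cdc42-/- replicate 2. Within a library the ratio of Cd69 to Cd83 was 0.959 to 1.15 in WT and Cdc42+/-, and 11.1 and 5.31 in Cdc42-/-. Cd83 is also made by B cells and dendritic cells. B-cell markers were at 11.0 RPKM in sum in Cdc42-/- replicate 1 and 16.8 in replicate 2, against 12.7 to 18.7 in WT. Dendritic markers were at 5.29 and 48.4 RPKM against 2.81 to 3.70, and 41.2 RPKM of the 48.4 was H2-Aa.

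Tnf encodes the cytokine TNF (chr17:35199367-35202007, gene ID 21926) and was at 22.9 and 19.4 RPKM in the WT libraries, 16.7 and 19.8 in the heterozygous ones, and 11.2 and 7.35 in the homozygous knockouts. The Cdc42-/- libraries were the lowest, while Cdc42+/- overlapped WT. The Cdc42-/- mean was 0.439 of that of WT (-1.13, SE 0.21), with -0.85 without its replicate 2, and 0.509 of that of Cdc42+/- (-0.92, SE 0.21). Tnf shares its locus with the lymphotoxin genes Lta and Ltb, which encode related cytokines needed for lymphoid tissue. Lta lies 1157 bases from it and Ltb 3061 bases on the other side, within 11072 bases in all. Lta fell from 76.0 and 65.4 RPKM in WT to 34.5 and 28.0 in Cdc42-/- (log2 fold change -1.16, SE 0.14, limma adjusted p 0.00576), with 52.2 and 52.6 in Cdc42+/-. Ltb, far more abundant, fell from 562 and 569 RPKM to 366 and 219.96 (-0.99, SE 0.23, limma adjusted p 0.0470), with 496 and 527 in Cdc42+/-. In the authors' deposited table Lta is also lower in Cdc42+/- than in WT (log2 fold change -0.46, adjusted p 0.00417), a difference that limma did not call. Against Cdc42+/- the fall of Lta passed as well (-0.74, SE 0.14, limma adjusted p 0.0306), in 9 of 14 alternatives, but not without either WT or either Cdc42+/- library (limma adjusted p up to 0.234). Ltb passed against WT in 7 of 14 alternatives. It failed without either WT or either Cdc42+/- library, without the filter on low values, with only the compared genotypes and with the replicate block. Lta failed against WT in 1 alternative, without WT replicate 1. In Cdc42-/- all 3 neighbouring genes were lower than in any WT or Cdc42+/- library. The ratio of Tnf to Ltb was 0.0336 to 0.0407 in WT and Cdc42+/-, and 0.0306 and 0.0334 in Cdc42-/-.

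**Figure D3:**
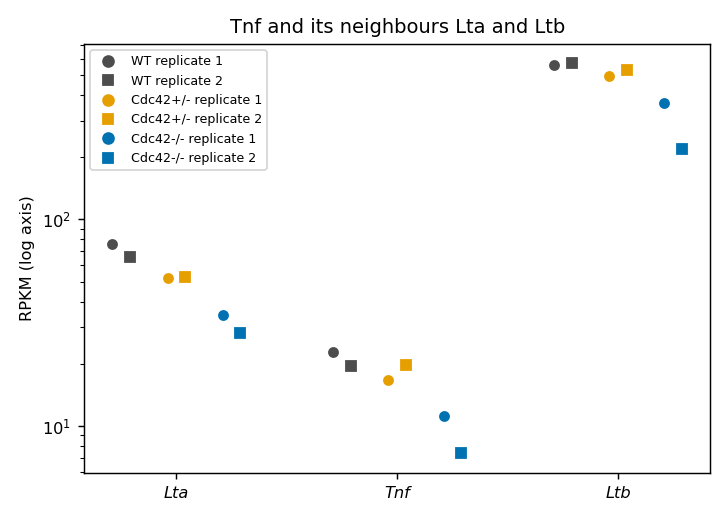
RPKM of Lta, Tnf and Ltb in each library on a log axis, with colour for genotype and shape for replicate. In all 3 genes the Cdc42-/- points are the lowest, and for Lta the 3 genotypes do not overlap.

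In Cdc42-/- against WT, 4 of the 10 were below 0.05 after adjustment in limma's fit over all genes, 2 higher (Nr4a1 and Tnfaip3) and 2 lower (Cd83 and Tnf). The background was 11.4% of all 12233 genes, 6.86% higher and 4.57% lower. The median log2 fold change of the 10 was -0.02, beside 0.01 over all genes tested. For 8 of the 10 (all but Nr4a3 and Nfkbia) no library of one genotype lay within the other's range, which held for 56.0% of all genes. In Cdc42-/- against Cdc42+/-, 3 of the 10 passed, 2 higher (Nr4a1, and Tnfaip3, which passed in 6 of 14 alternatives) and 1 lower (Cd83), beside 8.22% of all genes (4.68% higher, 3.54% lower), with a median of 0.10 beside -0.01. There 9 of 10 did not overlap, against 59.0% of all genes. Because the members were named with these contrasts in view, nothing is read from these counts. Both comparisons share the Cdc42-/- libraries.

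The counts moved with single libraries. Without Cdc42-/- replicate 2, 8 of the 10 passed against WT, with Cd69, Nfkbia and Nfkbid added to the higher genes and Nr4a2 to the lower, while 18.5% of all genes passed. Without Cdc42-/- replicate 1, 6 passed (Cd69 and Rel were added), when 36.2% of all genes did. Without WT replicate 1, or without WT replicate 2, Cd83 alone passed against WT, beside 2.12% and 2.14% of all genes. Without either Cdc42+/- library Tnf lost its call against WT and 3 members passed, beside 4.47% and 4.5% of all genes. Against Cdc42+/-, 0 members and 0 genes passed without either Cdc42+/- library, 1 member (Cd83) and 2.13% of all genes without WT replicate 1, and 2 (Cd83 and Nr4a1) and 2.27% without WT replicate 2. Without Cdc42-/- replicate 1, 6 members and 34.8% of all genes passed against Cdc42+/-, and without replicate 2, 8 members and 14.9%. Without replicate 2 the differences of the members from Cdc42+/- ran from -2.02 (Cd83) to 1.32 (Cd69), and that of Nr4a3 was 0.22 where it was -0.07 with both. In such a fit the lone library of a genotype is assumed to vary like the others.

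In Cdc42+/- against WT, 0 of the 10 genes passed in limma, 0 had an unadjusted p under 0.05, and voom on the recovered reads also called 0. The background was 0.0% of all genes, of which 529 had an unadjusted p under 0.05. The log2 differences ran from -0.20 (Tnf, SE 0.21) to 0.28 (Tnfaip3, SE 0.16), with a median of -0.01 beside 0.03 over all genes. There was no overlap for 3 of the 10, Nr4a1 and Tnfaip3 (higher in Cdc42+/-) and Nfkbid (lower), where 43.2% of all genes had none.

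**Figure D4:**
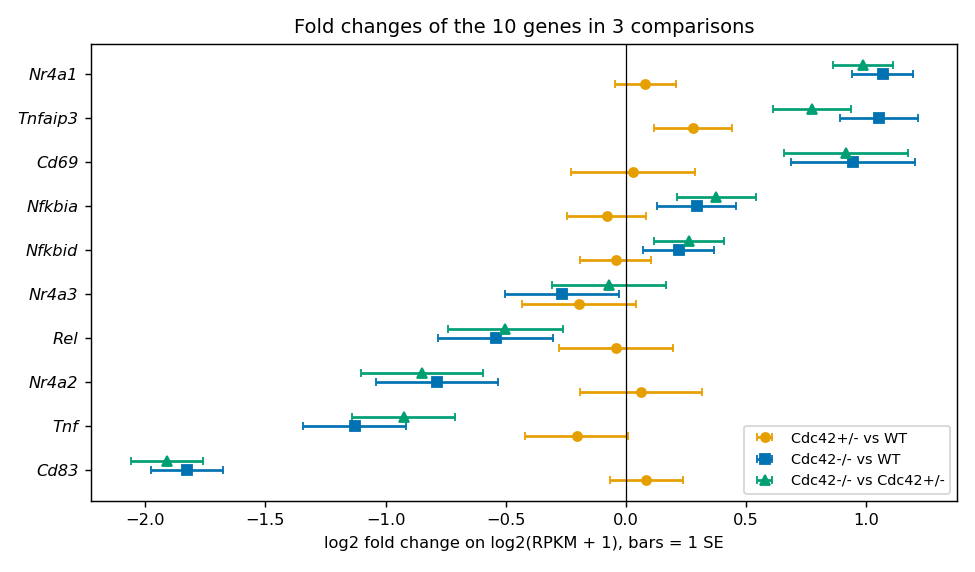
Log2 fold change of each gene on the log2(RPKM + 1) scale in the 3 comparisons, with bars of 1 SE from limma. Cdc42-/- spreads from -1.83 (Cd83) to 1.07 (Nr4a1) against WT and from -1.91 (Cd83) to 0.99 (Nr4a1) against Cdc42+/-, while Cdc42+/- against WT stays between -0.20 and 0.28.

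In the authors' deposited table for Cdc42-/- against WT, 5 of the 10 genes are under 0.05 after adjustment (3 higher, 2 lower), beside 8.66% of all genes in that table. The gene added there is Cd69, with a log2 fold change of 0.98. The authors' deposited table gives log2 fold changes of 1.05 for Nr4a1, 1.06 for Tnfaip3, -1.96 for Cd83 and -1.23 for Tnf. For Cdc42+/- against WT, 0 of the 10 are past 0.05 in the authors' deposited table, beside 2.28% of all genes.

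How the rest of the pathway stood was read from lists of genes grouped by function. Like the members, these lists were chosen with earlier results of these data known. Their counts and p-values, those of Lta and Ltb above included, are therefore given as a description. Counts from the fit of all libraries stand beside the same 11.4% of all genes called in Cdc42-/- against WT and 8.22% against Cdc42+/-. The first held the other NF-kB subunits and IkB proteins, and 0 of its 8 genes passed in any comparison by limma, with 0, 3 and 2 under 0.05 before adjustment in Cdc42+/- against WT, Cdc42-/- against WT and Cdc42-/- against Cdc42+/-, and 0 by voom. Nfkb1, which encodes the p105 precursor of p50, was at 117 ± 0.993 RPKM (SD, n = 2) in WT and 109 ± 14.2 in Cdc42-/-. Rela, the p65 subunit, was at 51.4 ± 4.47 and 47.0 ± 5.45 RPKM, and Relb at 22.1 ± 1.14 and 24.3 ± 7.16. Nfkb2, the p100 precursor of p52, was at 35.7 ± 1.98 and 50.3 ± 13.4 RPKM. Among the IkB proteins, Nfkbib was at 12.98 ± 1.71 and 19.4 ± 0.579 RPKM (log2 fold change 0.55, SE 0.14, limma adjusted p 0.0522) and Bcl3, a nuclear coactivator, at 29.0 ± 4.995 and 52.8 ± 21.4. Nfkbie was at 17.9 ± 0.742 and 13.4 ± 5.20, and Nfkbiz at 43.7 ± 1.32 and 40.0 ± 12.1. The counts of this list moved when single libraries were left out, as given in the closing section. The list's median log2 fold change was 0.00 in Cdc42-/- against WT, between -0.44 and 0.79.

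Of 16 kinases, adaptors and ubiquitin ligases upstream of NF-kB, 0 passed in any comparison by limma or voom, with 1, 2 and 2 under 0.05 before adjustment in the same order. The median in Cdc42-/- against WT was 0.02, and the range was -0.45 to 0.34. The adaptor gene Bcl10 (25.9 ± 1.09 RPKM in WT and 33.0 ± 1.47 in Cdc42-/-, SD, n = 2) and the protease gene Malt1 (22.96 ± 4.77 RPKM and 27.4 ± 0.752, likewise) did not pass. Of 16 further feedback inhibitors and targets, 4 passed in Cdc42-/- against WT, 1 higher and 3 lower, beside 11.4% of all genes. Their median was 0.10. Gadd45b, a stress-response gene that restrains JNK signalling, rose from 10.8 ± 1.47 to 23.0 ± 1.99 RPKM (1.02, SE 0.19, limma adjusted p 0.0240). Lta and Ltb fell as given above, and Traf1, an adaptor of TNF receptors, fell from 91.8 ± 5.03 to 50.8 ± 10.3 RPKM (-0.85, SE 0.15, limma adjusted p 0.0196). Against Cdc42+/-, 2 of the 16 passed, Traf1 (-0.89) and Lta, both lower, beside 8.22% of all genes.

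Of 12 other antigen-receptor and NFAT responsive genes, 3 passed in Cdc42-/- against WT, beside 11.4% of all genes. All 3 rose, while the median of the 12 was -0.10. These were the effector regulator Irf4 (14.8 ± 0.903 to 31.6 ± 2.52 RPKM, 1.04, SE 0.15, limma adjusted p 0.0107) and the MAP-kinase phosphatases Dusp5 (17.9 ± 1.30 to 29.7 ± 2.85 RPKM, 0.70) and Dusp2 (62.7 ± 0.417 to 124 ± 39.0 RPKM, 0.94, limma adjusted p 0.0461). Dusp5 passed in 8 of 14 alternatives and Dusp2 in 5. Among the alternatives in which Dusp2 failed were no filter on low values, only the compared genotypes, the replicate block, upper-quartile scaling and array weights. The EGR genes, which like Nr4a1 are direct readouts of receptor signalling, did not pass. Egr1 stood at 26.2 and 23.5 RPKM in the WT libraries against 39.8 and 27.2 in the homozygous knockouts (0.39, SE 0.19). Egr2 was at 12.7 and 16.5 against 10.5 and 9.30 RPKM (-0.51, SE 0.17), and Egr3 at 14.7 and 11.6 against 12.6 and 10.1 (-0.20, SE 0.17). Against Cdc42+/-, Irf4 passed alone (1.04, SE 0.15, limma adjusted p 0.0156), beside 8.22% of all genes.

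Immediate early genes respond to receptor signals and also to tissue handling. Of 13 tested out of 15 listed, 9 passed as higher and 1 as lower in Cdc42-/- against WT, beside 11.4% of all genes. Against Cdc42+/- 6 passed as higher and 1 as lower, beside 8.22%. In each of these comparisons 12 log2 fold changes were above 0 and 1 below, with medians of 0.96 and 0.84. Dusp1, another MAP-kinase phosphatase, rose from 14.7 and 14.6 RPKM in WT to 47.8 and 101.6 (limma adjusted p 0.0114), and Ier3 from 0.115 and 0.321 RPKM (2 and 3 reads) to 3.90 and 7.93. The AP-1 genes Jun (2.50 and 3.45 to 18.8 and 71.8 RPKM) and Fos (1.89 and 4.69 to 26.9 and 122 RPKM) rose as well. Replicate 2 was the higher Cdc42-/- library for all 4, as it was for Nr4a1. Its myeloid marker sum was also the higher, and the part of either in these results was not tested. Junb, an AP-1 subunit, rose from 78.9 and 94.4 to 161 and 176 RPKM (limma adjusted p 0.0142), and Klf6 from 44.3 and 49.6 to 73.8 and 76.1. The chaperone gene Dnajb1 rose from 14.7 and 11.9 to 26.2 and 25.5 RPKM. The antiproliferative gene Btg2 fell from 77.6 and 71.6 to 50.3 and 39.8 RPKM (limma adjusted p 0.0234). With only the compared genotypes in the fit, 3 of the 13 passed against WT, beside 4.38% of all genes, and 0 against Cdc42+/-, beside 2.26%. Without WT replicate 1 every named list gene lost its call against WT among those tried (Lta, Ltb, Traf1, Gadd45b, Irf4, Dusp2, Dusp5, Dusp1, Ier3, Jun, Junb, Klf6 and Dnajb1), and without WT replicate 2 all of these but Lta did. These genes were named because they passed with all libraries. Without Cdc42-/- replicate 2, when 18.5% of all genes passed against WT, their log2 fold changes were -1.01 for Lta, -0.62 for Ltb, -0.65 for Traf1, 0.94 for Gadd45b, 0.96 for Irf4, 1.26 for Dusp2 and 0.79 for Dusp5. Of the immediate early genes, Jun was then at 2.33, Ier3 at 2.01, Dusp1 at 1.64, Dnajb1 at 0.93, Junb at 0.89 and Klf6 at 0.64. In Cdc42+/- against WT, 0 genes of these 5 lists passed by limma, with 0, 1, 2, 1 and 1 under 0.05 before adjustment in the order given, and voom also called 0.

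**Figure D5:**
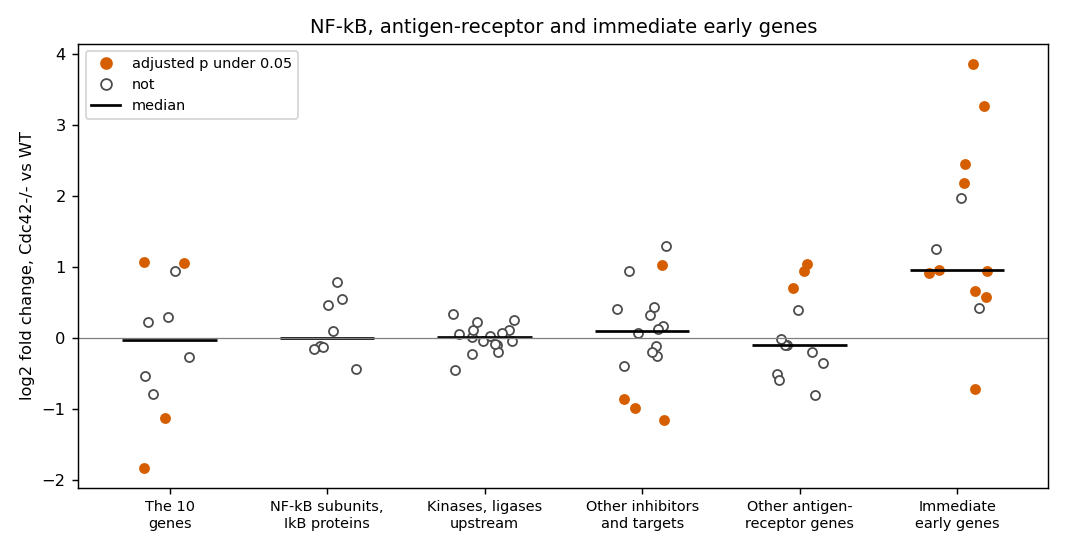
Log2 fold change in Cdc42-/- against WT for the 10 genes and 5 lists, 1 point per gene, filled where limma's adjusted p was under 0.05, with a bar at each list's median. The medians lie between -0.10 and 0.10 except for the immediate early genes, at 0.96.

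Among themselves the 10 genes formed no single pattern. Likeness was measured as the root mean square difference of log2(RPKM + 1) over the 6 libraries after centring each gene on its own mean, so 0 means an identical profile. The closest pair was Nfkbia and Nfkbid at 0.0894, followed by Cd69 and Tnfaip3 at 0.188 and Nr4a3 and Rel at 0.199. The farthest pair was Nr4a1 and Cd83 at 1.37. Out of 8469 genes averaging 5 RPKM or more, the 3 closest to each member gave 30 entries, and 0 of these was another member. Closest to Nr4a1 were Plp2 (0.0327), Ywhae (0.0559) and Nasp (0.0629). The nearest to Cd83 were Ldlrad4 (0.135), Galm (0.135) and Itgb8 (0.142), to Tnf Tom1l2 (0.0686), Phf1 (0.0748) and Fam189b (0.0864), and to Rel 9930104L06Rik (0.0479), Arhgap31 (0.0552) and Tnks1bp1 (0.0714). These values describe 6 libraries that differ in genotype, sex-linked expression and myeloid reads together.

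Replicates of the 10 genes lay farther apart in Cdc42-/- than in the other genotypes. On the log2(RPKM + 1) scale the median absolute gap between replicates of a genotype was 0.14 for WT, 0.19 for the heterozygotes and 0.41 for the homozygous knockouts, beside 0.16, 0.12 and 0.30 over all genes tested. Of the 10, 7 were higher in replicate 1 in WT, 5 in Cdc42+/- and 7 in Cdc42-/-, where Nr4a1, Nr4a2 and Cd83 were higher in replicate 2.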

How the data were processed

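The 6 libraries were aligned with TopHat to mm10, per the submitters' processing notes; the counting tool, annotation, strand setting and filters are not given in the sources used here. The authors deposited 2 tables, in which each library column holds RPKM values (worked out from the values, since the headers give no unit). Per the file headers they also hold group means, a signal of reads scaled by size factors, the authors' fold ratio, its log2 value, and p-values with adjusted p-values of an unnamed test. Reads were recovered from the RPKM values and group means: 100.0% of values and gene lengths came out whole within 0.01, and the WT reads differed between tables at 0 genes. Behind each value of the members other than Nr4a2 lay 111 to 4514 reads.

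The 12233 genes averaging 0.5 RPKM or more were fitted with limma 3.58.1 in R 4.3.3 (lmFit, eBayes with trend) on log2(RPKM + 1), with the 6 libraries in 1 fit, no block and Benjamini-Hochberg adjustment over all genes at 0.05. The recovery of reads and the limma fit were each run on simulated data. The simulated spread for limma was the same in all genotypes, so that run does not cover the wider spread of the Cdc42-/- libraries. Members and lists were chosen with earlier results of these data known. Named were all members, up to 6 called genes per list and comparison by p, the core NF-kB genes, Bcl10, Malt1 and the EGR genes, and for 4 members the 3 genes of closest pattern. Gene positions and promoter sequences are RefSeq's on GRCm38.p6 (the assembly of mm10), and 0 of the 10 genes overlapped another GENCODE M21 gene. Alternatives changed the pseudocount, filter, scaling, weights, libraries, block and use of voom. The rule is given without 1 further gene, which is not reported here.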

Additional observations from a re-analysis of the deposited data

How the results depend on the processing

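Over 14 alternatives (13 for Nr4a2) no member's log2 fold change in Cdc42-/- against WT changed sign except that of Nr4a3, which was 0.02 without Cdc42-/- replicate 2. With only the compared genotypes in the fit, the genes called numbered 60 in Cdc42+/- against WT (0 in the fit of all libraries), 536 in Cdc42-/- against WT (1398) and 276 in Cdc42-/- against Cdc42+/- (1006). In that fit Tnf lost its call against WT, 2, 1 and 3 genes of the feedback, antigen-receptor and immediate early lists passed against WT (4, 3 and 10 with all libraries), and 0, 0 and 0 against Cdc42+/- (2, 1 and 7). Array weights gave 88, 885 and 735 genes, and 1 antigen-receptor gene against WT. Voom gave 1 gene in Cdc42+/- against WT and 3 antigen-receptor genes in Cdc42-/- against Cdc42+/-. A mean of at least 2 RPKM added 1 gene of the subunit list against WT and gave 2 antigen-receptor genes against Cdc42+/-, and upper-quartile scaling added 1 upstream gene against WT and gave 2 antigen-receptor genes against Cdc42+/-. The cause was not tested. Leaving out 1 library at a time gave 0 to 76, 259 to 4433 and 0 to 4263 genes in these 3 comparisons, and 1 to 8 and 0 to 8 members in the comparisons of Cdc42-/- with WT and with Cdc42+/-. In the same order, it gave 0 to 3 and 0 to 3 subunit genes, 0 to 4 and 0 to 6 upstream genes, 0 to 8 and 0 to 9 feedback genes, 0 to 6 and 0 to 7 antigen-receptor genes, and 0 to 12 and 0 to 11 immediate early genes. The labels give no pairing by replicate number. Deviations of same-numbered libraries correlated at 0.0177 (WT and Cdc42+/-), 0.202 (WT and Cdc42-/-) and -0.0343 (Cdc42+/- and Cdc42-/-), and the fit with the replicate block called 0, 1144 and 809 genes and 0, 4 and 3 members. Precision is limited by the 2 libraries a genotype and, for Nr4a2 (11 to 105 reads) and Ier3 (2 and 3 reads in WT), also by few reads. Without the filter on low values, with upper-quartile scaling, with array weights or with only the compared genotypes, Tnfaip3 lost its call against Cdc42+/-.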
